A study of Rattus norvegicus with 12 samples.

Results

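Axon guidance ligands and receptors were followed in young rats, in the cerebellum, cord and sciatic nerve, after acrylamide or saline. They were taken by symbol: ephrins (Efna, Efnb) and Eph receptors (Epha, Ephb), semaphorins (Sema), plexins (Plxn), neuropilins (Nrp1, Nrp2), netrins (Ntn) with their receptors Dcc and Unc5, and Slits with their Robo receptors. On the array, 97 of 31042 probe sets carried 1 such symbol. For each gene the probe set with the highest mean log2(signal + 16) was kept, which left 58 genes of 14217. The 58 were 3 ephrin-A, 2 ephrin-B, 8 EphA and 4 EphB genes, 7 class 3 and 10 membrane semaphorins, 8 plexins, 2 neuropilins, 2 netrins, 4 netrin receptors, 3 Slits and 3 Robos, and 2 genes that match only by name. The last, Unc50 and Unc5cl, are not guidance receptors and are counted among the 58.

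The animals were male Wistar rats, and no genetic change is labelled. One arm received acrylamide by oral gavage at 30 mg/kg per day for 21 days, and the other received saline, which a second label calls solvent. The age at the start is given as 25 days in one label and 3 weeks in another. Cerebellum, spinal cord, and the right and left sciatic nerves were taken, and 1 label places collection 21 days after treatment. Each of the 3 tissues has 2 saline and 2 acrylamide arrays, 12 arrays in 6 groups, and each array holds tissue pooled from 2 rats. P-values therefore measure the spread between pools, and n is 2 arrays in every group.

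Guidance proteins tell growing axons where to go, and many stay on in glia, vessels and connective tissue of the mature nervous system. Ephrins sit on the cell surface and signal through Eph receptor tyrosine kinases. Class 3 semaphorins are secreted and mostly act through a neuropilin paired with a plexin, while membrane semaphorins bind plexins directly. Netrins attract axons through Dcc and repel them through Unc5 receptors, and Slits repel axons through Robos. Acrylamide is a neurotoxicant known for damage to the far ends of long axons.

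The tissue labels were checked against marker genes on the array. Granule neuron markers summed to 41562 to 45499 signal units in the cerebellum, cord neuron markers to 4823 to 5199 in the cord against 106 to 276 in the cerebellum, and Schwann cell markers to 67168 to 87206 in the nerve. Some arrays stood apart. Both nerve arrays numbered 1 carried cerebellar markers: the 6 granule neuron genes summed to 5032 and 505 on the saline nerve arrays and to 6451 and 459.7 on the acrylamide nerve arrays, in replicate order, and the 5 Purkinje cell genes to 8143 and 1754 and to 10258 and 1649.7. The granule neuron marker Gabra6 stood at 92.6 and 139.8 on the nerve arrays numbered 2. Skeletal muscle markers summed to 29457 and 599.7 on the saline cord arrays and to 305 and 313 on the acrylamide cord arrays. On the nerve arrays these markers summed to 3884 and 500.5 in saline and 1294 and 15815 in acrylamide rats, and fat cell markers to 20365 and 3398 and 4971 and 7287. Counts of called genes and the main differences are also given below without the nerve arrays numbered 1 and without cord saline replicate 1.

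A gene was tested in a tissue where its mean signal over the 4 arrays lay above 110 arbitrary units, the 40th percentile of all tissue means. By this filter 29 of the 58 genes passed in all 3 tissues, 14 in 2, 6 in 1 and 9 in none. The 9 were Dcc, Efna4, Epha8, Ntn5, Robo3, Sema3a, Slit1, Unc5a and Unc5cl, among them the netrin receptor Dcc and the class 3 semaphorin Sema3a. A signal under the filter is a limit of the array and not an absence of the transcript. In the cerebellum 36 genes passed, in the cord 45 and in the nerve 40. Of the 49 genes that passed somewhere, 26 had their highest saline mean in the nerve, 13 in the cord and 10 in the cerebellum.

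**Figure D1:**
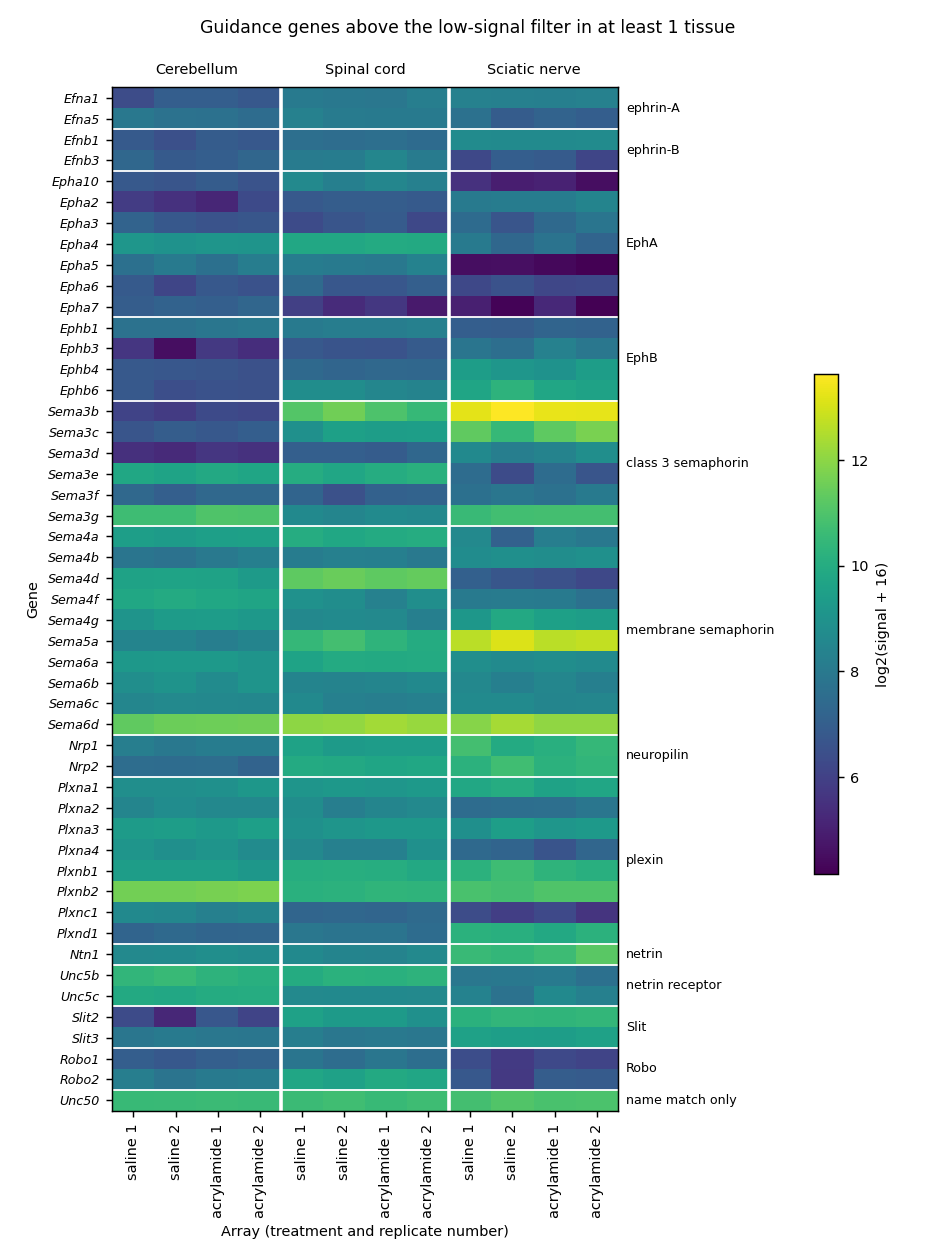
Signal of the 49 guidance genes above the filter in at least 1 tissue, as log2(signal + 16), with 1 row per gene, rows grouped by class and 1 column per array (treatment and replicate number). The colours differ most between tissue blocks, as for Sema3b, Slit2 and Sema4d, and little between saline and acrylamide columns of 1 tissue.

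Guidance genes differed widely between tissues in saline rats. A gene was called between tissues at an adjusted p under 0.05 (limma, Benjamini-Hochberg over all probe sets tested) with a log2 difference of at least 1. In the cord against the cerebellum, 13 of 46 tested genes were called higher and 5 lower, where 12% and 9.54% of all 20483 probe sets were called. In the nerve against the cord, 12 of 48 were higher and 14 lower, where 10.6% and 15.5% of 20242 were called. In the nerve against the cerebellum, 19 of 47 were higher and 13 lower, where 17.7% and 20.6% of 20724 were called. The called share of the guidance genes was thus 39.1%, 54.2% and 68.1% beside 21.6%, 26.1% and 38.4% of all probe sets. The units differ: each guidance gene counts once, by its brightest probe set, while the background counts every probe set tested. Their median log2 differences were 0.46, 0.28 and 0.12, beside -0.06, 0.04 and -0.14 over all probe sets. The filter itself favours a difference for genes that passed in only 1 of the tissues compared, and these were 8 of the 18, 8 of the 26 and 15 of the 32 called genes. In each comparison 3 further genes passed in only 1 tissue and were not called.

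The split of called genes between nerve and cord depended on the scaling. Centring each array on its median moved the median of all probe sets by 0.18 for nerve minus cord and by 0.198 for nerve minus cerebellum, and the nerve then held 18 guidance genes called higher and 10 lower than the cord, against 12 and 14. Quantile normalization gave 15 and 10. The shares of all probe sets called under these scalings are not given here, so the change is not shown to be particular to guidance genes. In bulk tissue, fewer cells of a type and less RNA per cell cannot be told apart.

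**Figure D2:**
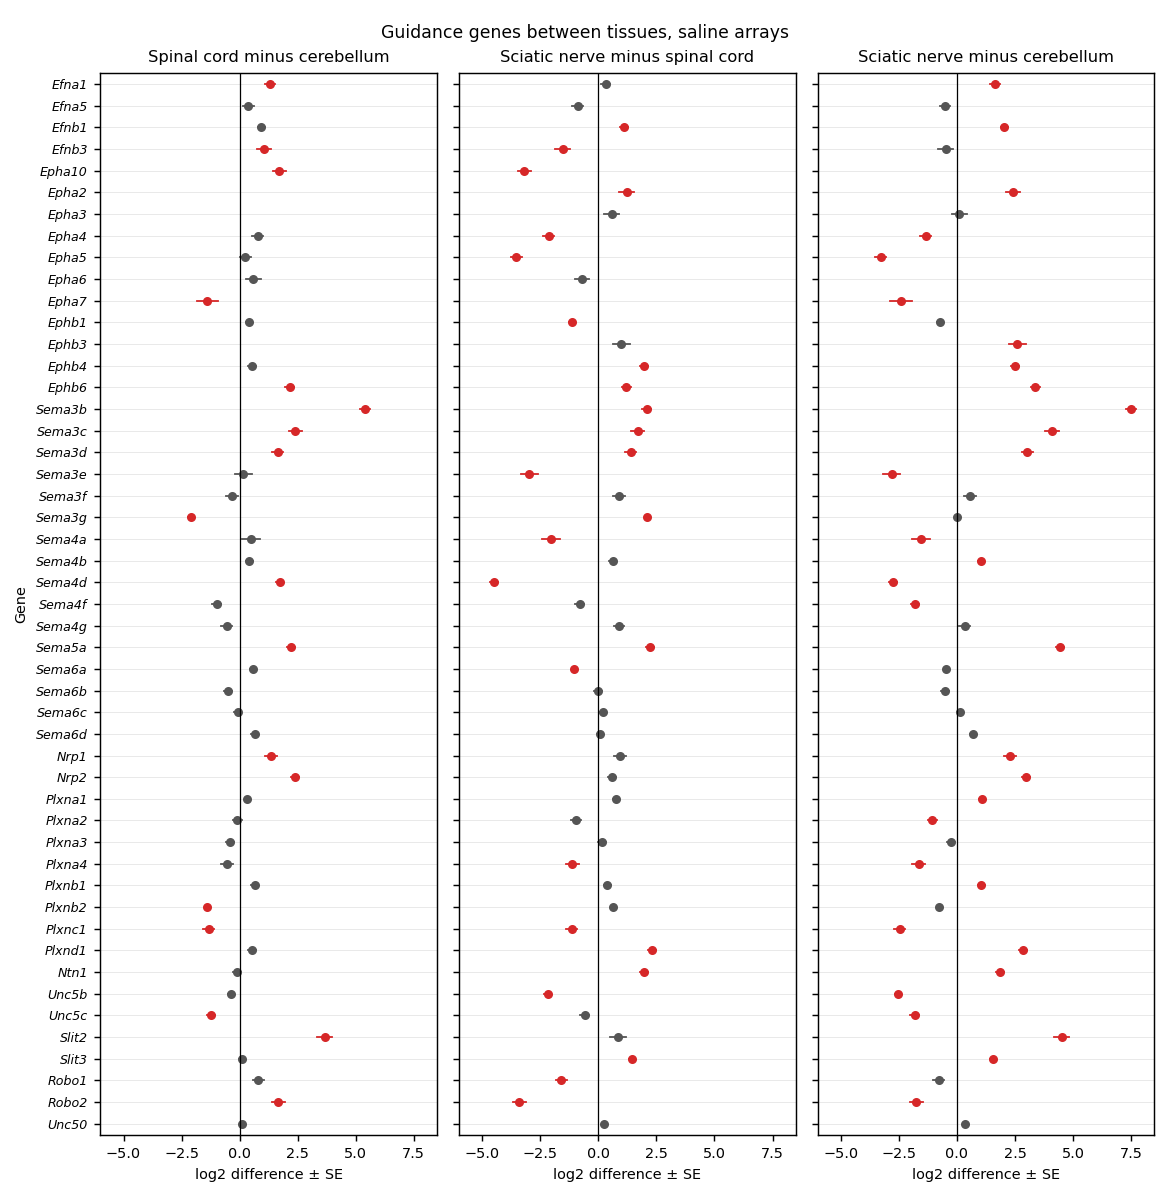
Log2 difference between tissues in saline rats for each guidance gene that passed the filter, with called genes in red. Bars are 1 standard error, from the spread shared by all 6 groups and not only the 2 tissues compared (2 arrays per tissue). Sema3b, Slit2 and Sema5a lie far to the right in both panels against the cerebellum, and Sema4d, Epha5 and Robo2 lie far to the left in the nerve against the cord.

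Start-site sequence is shown for the gene with the widest range of saline tissue means among those highest in each tissue that have an entry. Genes with their highest mean in different tissues can then be read side by side. The ranges are ratios of mean signal + 16, without the filter's signal in place of dim values. Those of Epha5 (nerve arrays at 7.29 and 7.81) and Sema3c (cerebellum arrays at 85.6 and 109) rest on values under the filter, so their size is uncertain. Sequences are from RefSeq, assembly GRCr8, from 250 bases before to 50 after the start, and 44 of the 58 genes had an entry. Capitals mark matches, on either strand, to 4 short motifs: TATAAA (the TATA box), CCAAT (the CCAAT box), GGGCGG (the GC box bound by Sp1) and ACAAAG (a core of SOX factor sites, which glia use). No motif contains another.
Sema3c (highest in the nerve, 17.69-fold range), chr4:18699578-18699877, minus strand: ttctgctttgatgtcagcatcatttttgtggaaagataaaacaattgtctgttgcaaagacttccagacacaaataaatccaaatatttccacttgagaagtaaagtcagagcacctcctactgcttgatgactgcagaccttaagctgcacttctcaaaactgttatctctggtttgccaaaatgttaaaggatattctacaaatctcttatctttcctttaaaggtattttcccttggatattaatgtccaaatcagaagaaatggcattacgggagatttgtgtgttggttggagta
Epha5 (highest in the cord, 11.55-fold range), chr14:24007872-24008171, plus strand: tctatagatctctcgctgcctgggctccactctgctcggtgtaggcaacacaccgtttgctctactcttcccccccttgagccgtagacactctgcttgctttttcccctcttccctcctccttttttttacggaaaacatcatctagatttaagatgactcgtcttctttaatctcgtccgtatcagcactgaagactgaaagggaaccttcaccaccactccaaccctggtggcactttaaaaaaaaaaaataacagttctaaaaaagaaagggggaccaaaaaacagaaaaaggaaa
Unc5b (highest in the cerebellum, 5.838-fold range), chr20:29307221-29307520, minus strand: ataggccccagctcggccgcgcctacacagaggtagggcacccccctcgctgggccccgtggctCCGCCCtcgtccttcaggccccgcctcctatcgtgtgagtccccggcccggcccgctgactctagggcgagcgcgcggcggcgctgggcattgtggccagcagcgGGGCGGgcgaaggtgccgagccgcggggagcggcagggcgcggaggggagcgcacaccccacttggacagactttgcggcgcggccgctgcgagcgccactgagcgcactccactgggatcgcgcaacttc

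The 3 windows differ in base content: Sema3c has 1 CpG and 36.3% G and C, Epha5 has 8 CpG and 44.7%, and Unc5b has 37 CpG and 74.3% and holds 2 GC boxes. Epha5 was not called between cord and cerebellum (0.24 ± 0.24, adjusted p = 0.42 by limma), so its rank there rests on the nerve. Unc5b was not called between them either, with a log2 difference of -0.37, so its range also rests mainly on the nerve. Over the 44 entries, the TATA box was found in 0, the CCAAT box in 16 (36.4%), the GC box in 26 (59.1%) and the SOX motif in 6 (13.6%). Among all 27457 entries of the same length the shares were 14.3%, 37.7%, 34.9% and 18.3%. A match describes these letters only. In gene order on the chromosome, Sema3a and Sema3d have no protein-coding gene between them, Robo1 and Robo2 have 1, Efna1 and Efna4 have 1, Sema3b and Sema3f have 3, and Sema3c and Sema3e have 4. Of the last pair, Sema3c was higher and Sema3e lower in the nerve than in the cord.

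Among the secreted ligands, class 3 semaphorins showed the widest spread. Of the 6 tested, 3 were called higher and 1 lower in the cord than in the cerebellum, 4 higher and 1 lower in the nerve than in the cord, and 3 higher and 1 lower in the nerve than in the cerebellum. Sema3b, which binds neuropilins and can collapse growth cones, gave saline signals of 50.6 and 39.9 in the cerebellum, 2169 and 3066 in the cord and 9524 and 12569.7 in the nerve. The tissues did not overlap, and both cerebellum arrays lay under the filter. The log2 difference was 5.41 ± 0.21 (SE, as for each ± value of a difference) for cord minus cerebellum (adjusted p = 6.4e-07), 2.08 ± 0.21 for nerve minus cord (adjusted p = 4.29e-05) and 7.49 ± 0.21 for nerve minus cerebellum (adjusted p = 2.19e-08). With the filter's signal in place of the cerebellum values, the cord was at least 20.6-fold and the nerve at least 87-fold above the cerebellum. These folds, and those below, are ratios of signal + 16, which understate the difference of dim genes.

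Sema3c followed the same order of tissues, at 85.6 and 109 in the cerebellum, 464 and 722 in the cord and 2541 and 1431 in the nerve. The cord stood at least 4.73-fold and the nerve at least 15.3-fold above the cerebellum (log2 differences 2.40 ± 0.29 and 4.10 ± 0.29), without overlap. Sema3d, another secreted class 3 ligand, was under the filter in the cerebellum (28.5 and 23.6), close to it in the cord (115 and 115) and at 385 and 279.8 in the nerve. The nerve stood at least 2.73-fold above the cerebellum (log2 difference 3.04 ± 0.23).

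Sema3e and Sema3g did not share that order. Sema3e, which signals through plexin D1 without a neuropilin, read 886 and 792 in the cerebellum, 1037 and 847 in the cord and 167 and 64.5 in the nerve. Both nerve arrays lay below every central array, and the array numbered 1 was the brighter of them. Its log2 difference was -2.97 ± 0.37 for nerve minus cord and -2.81 ± 0.37 for nerve minus cerebellum, while cord minus cerebellum was 0.16 ± 0.37 (95% interval -0.67 to 0.99). The standard error uses the spread of all 6 groups, and for Sema3e the nerve replicates differed by 1.19 log2 in saline and 0.87 in acrylamide. Sema3g read 1632 and 1618 in the cerebellum, 388 and 341 in the cord and 1519 and 1739 in the nerve, so the cord alone was low. It was 4.32-fold lower in the cord than in the cerebellum (adjusted p = 1.23e-06) and 4.32-fold higher in the nerve than in the cord (adjusted p = 1.58e-06). Nerve minus cerebellum had a 95% interval of -0.22 to 0.22. Sema3f, a neuropilin-2 ligand, was not called in any tissue comparison by the probe set used. Its other probe set read 82.7 and 66.4 in the cerebellum, 41.9 and 24.1 in the cord and 201 and 155 in the nerve.

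Among the guidance genes tested, the largest fitted difference between cord and nerve was that of a membrane semaphorin. Sema4d, a plexin-B ligand carried by oligodendrocytes, read 778 and 793 in the cerebellum, 2452 and 2823 in the cord and 118 and 87.7 in the nerve. The tissues did not overlap, and 1 of 2 nerve arrays was under the filter. The nerve was at least 20.4-fold below the cord (log2 difference -4.49 ± 0.16, adjusted p = 1.33e-06) and at least 6.18-fold below the cerebellum. Oligodendrocyte markers summed to 61088 and 61269 on the saline cord arrays, 22100.2 and 24245 on the saline cerebellum arrays and 7882 and 5389.9 on the saline nerve arrays, and their part in the Sema4d result was not tested.

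Sema5a, a membrane semaphorin with thrombospondin repeats, ran the other way. It read 334 and 327 in the cerebellum, 1414 and 1754 in the cord and 6364 and 8850.4 in the nerve, above the filter everywhere. The cord was 4.59-fold above the cerebellum and the nerve 4.73-fold above the cord (log2 differences 2.20 ± 0.18 and 2.24 ± 0.18), and the nerve was 21.7-fold above the cerebellum (adjusted p = 1.27e-07). Schwann cell markers summed to 417 and 398, 19350.4 and 23494 and 67168 and 87206 on the same cerebellum, cord and nerve arrays, and fibroblast and perineurium markers to 3397 and 2425, 23585 and 21530.2 and 88668 and 74221. The part of these cells in the Sema3b, Sema3c and Sema5a differences was not tested.

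The other membrane semaphorins moved less. Sema4a and Sema6a were called lower in the nerve than in the cord (log2 differences -2.05 ± 0.38 and -1.03 ± 0.12), Sema4a and Sema4f lower in the nerve than in the cerebellum (-1.55 ± 0.38 and -1.81 ± 0.18), and Sema4b higher in the nerve than in the cerebellum (1.04 ± 0.14). Sema6d, a plexin-A1 ligand, was bright in every tissue, at 2537 and 2895, 4129 and 4349.7 and 3797 and 5136, and was not called. Sema4g, Sema6b and Sema6c were not called either, each by the probe set used. Another Sema6c probe set read 33.1 and 65.6 in the cord and 176 and 318 in the nerve.

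Netrin-1, Slit2 and Slit3 were highest in the nerve, and Slit1 was under the filter in every tissue. Ntn1, the founding netrin, read 382 and 395 in the cerebellum, 385 and 327 in the cord and 1526 and 1348 in the nerve. Both nerve arrays lay above all central arrays, while cerebellum and cord overlapped. The nerve was 3.91-fold above the cord (log2 difference 1.97 ± 0.18, adjusted p = 2.7e-05) and 3.58-fold above the cerebellum. Slit2, a secreted repellent, was under the filter in the cerebellum (64.9 and 21.8) and read 740.4 and 628 in the cord and 1165 and 1318 in the nerve, without overlap. The cord exceeded the cerebellum by at least 5.54-fold and the nerve by at least 9.96-fold. Nerve minus cord, at 0.85 ± 0.33, missed the size threshold for the probe set used. Another Slit2 probe set showed a wider gap, with 513 and 524 in the cord and 1283 and 1776 in the nerve. Slit3 was called higher in the nerve than in the cord (1.46 ± 0.13) and the cerebellum (1.56 ± 0.13), but not in the cord against the cerebellum (0.10 ± 0.13).

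**Figure D3:**
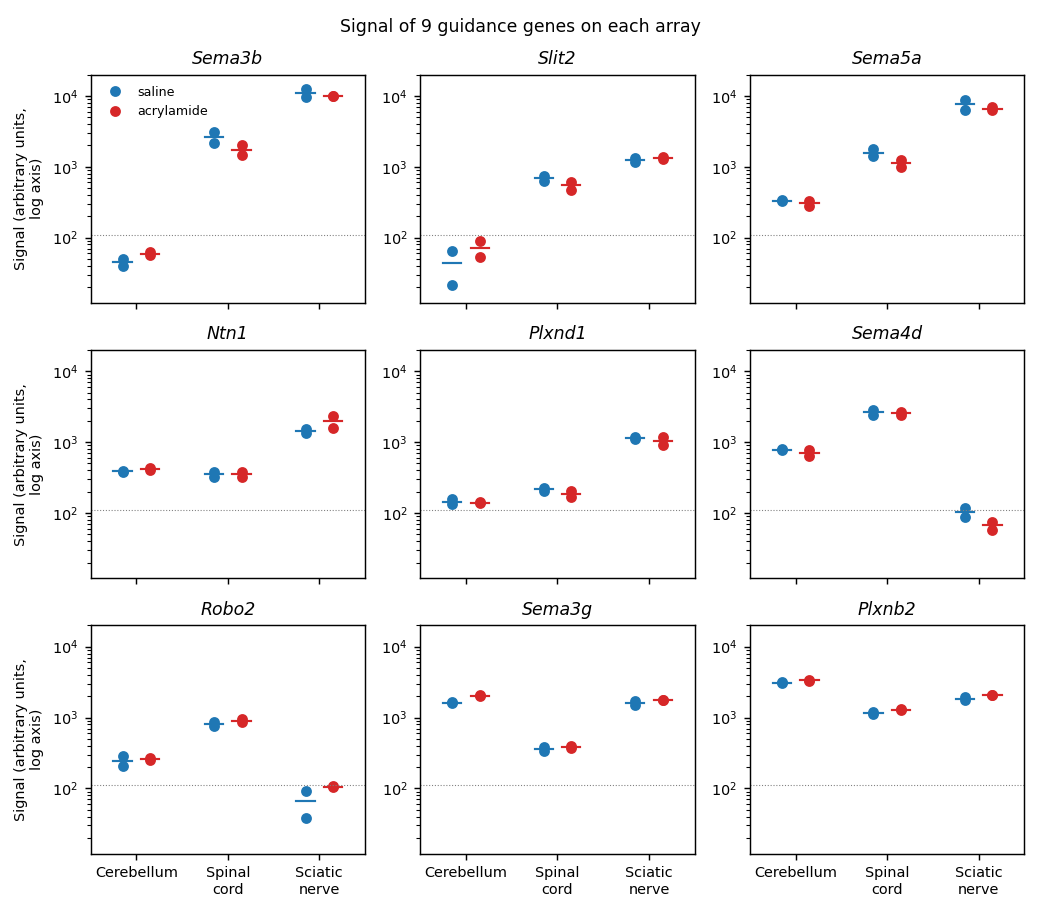
Signal of 9 guidance genes on each array on a log axis in arbitrary units, saline in blue and acrylamide in red, with a bar at each group mean (2 arrays) and a dotted line at the filter's 110 units. Sema3b, Slit2 and Sema5a climb from cerebellum to nerve, Sema4d and Robo2 peak in the cord, and the 2 colours stay close within each tissue.

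Ephrins differed by smaller amounts. Efna1 was called higher in the cord and in the nerve than in the cerebellum, at least 2.01-fold and at least 2.5-fold, from signals of 67 and 113, 248 and 234 and 308 and 298 in cerebellum, cord and nerve. Efnb1 was highest in the nerve, at 404 and 395 against 183 and 171 in the cord, a log2 difference of 1.11 ± 0.16. Efnb3, an ephrin of the spinal midline that keeps corticospinal axons from crossing back, had the opposite pattern, with 262 and 268 in the cord and 59.1 and 110.3 in the nerve (-1.53 ± 0.32). Efna5 was not called.

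The EphA receptors were mostly low in the nerve. Of 6 tested there against the cord, 3 were called lower (Epha4, Epha5, Epha10) and 1 higher (Epha2). Epha5, a receptor of ephrin-A ligands on central neurons, read 186 and 245 in the cerebellum, 264 and 247 in the cord and 7.29 and 7.81 in the nerve. Both nerve arrays were far under the filter, so the nerve was at least 2.16-fold below the cord and at least 1.82-fold below the cerebellum (fitted log2 differences -3.53 ± 0.24 and -3.28 ± 0.24). Epha10, which lacks kinase activity, read 379 and 286 in the cord and 30 and 15.1 in the nerve, at least 2.74-fold lower. Epha4 passed in all tissues and was 4.38-fold lower in the nerve than in the cord, at 254 and 147 against 906 and 898. Epha7 was near the filter in the cerebellum (108 and 124) and under it in the cord (45.9 and 24.6) and in the nerve (16.1 and 3.14). Its fitted differences from the cerebellum were -1.40 ± 0.46 and -2.41 ± 0.46, and the call in the cord ended without either cerebellum saline array (adjusted p = 0.0809 and 0.114), without cord saline replicate 2 (0.159) and with a pseudocount of 1 (0.181). Epha3 and Epha6 were not called.

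The EphB receptors ran the other way, except Ephb1. Ephb6, which has no kinase activity, read 97.3 and 71.6 in the cerebellum, 434 and 427 in the cord and 830.0 and 1238 in the nerve, without overlap. Against the cerebellum, the cord was higher by at least 3.55-fold and the nerve by at least 8.18-fold. Ephb4, an ephrin-B2 receptor of veins, read 97.4 and 92.3, 153 and 136 and 669.6 and 551 in the same order and was 3.88-fold higher in the nerve than in the cord (log2 difference 1.96 ± 0.18). Ephb3 was under the filter in the cerebellum (35.4 and 7.21) and read 214 and 175 in the nerve, at least 1.66-fold higher. Ephb1 was called lower in the nerve than in the cord, by at least 2.17-fold, with 1 of 2 nerve arrays under the filter. Endothelial markers summed to 2482 and 2819, 4593 and 4685 and 8144 and 9021 on the saline cerebellum, cord and nerve arrays, and their part in the Ephb4 result was not tested.

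Both neuropilins, the binding receptors of class 3 semaphorins, were lowest in the cerebellum. Nrp1 read 283 and 235 there, 763 and 617 in the cord and 1778 and 980.2 in the nerve, and Nrp2 read 169.9 and 169, 965 and 916 and 1202 and 1682. No cerebellum array overlapped with another tissue. Nrp2 was 5.16-fold higher in the cord (log2 difference 2.37 ± 0.17, adjusted p = 9.61e-06 by limma) and 7.75-fold higher in the nerve than in the cerebellum. Neither neuropilin was called between nerve and cord by the probe set used. The other Nrp1 probe set read 553 and 551 in the cord and 1415 and 1032 in the nerve.

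The plexins, the signalling receptors of semaphorins, split. Plxnd1, known from blood vessels as the Sema3e receptor, read 134 and 155 in the cerebellum, 227 and 206 in the cord and 1179 and 1095 in the nerve. The nerve was 4.96-fold above the cord (log2 difference 2.31 ± 0.16) and 7.2-fold above the cerebellum. Sema3e, its ligand, was the reverse, low in the nerve. Plxnb2, a receptor of class 4 semaphorins in cerebellar granule cell precursors, was highest in the cerebellum, at 3076 and 3134 against 1133 and 1207 in the cord and 1924 and 1743 in the nerve. The cord was 2.63-fold lower than the cerebellum (adjusted p = 2.45e-06). Plxnc1, the receptor of Sema7a, stepped down from cerebellum to nerve, at 391 and 361 in the cerebellum, 136 and 146 in the cord and 66.7 and 45.1 in the nerve. The log2 difference was -1.32 ± 0.24 for cord minus cerebellum, and the nerve, under the filter on both arrays, was at least 3.11-fold below the cerebellum. Plxna1 and Plxnb1 were called higher, and Plxna2 and Plxna4 lower, in the nerve than in the cerebellum, and Plxna3 was not called. Other Plxnb1 probe sets were not called there (0.84 and 0.33 beside 1.04). Another Plxna1 probe set, under the filter, read 86.6 and 46.7 in the cerebellum and 7.06 and 47.0 in the nerve. Plxna4 was also called lower in the nerve than in the cord (-1.12).

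The netrin receptors and Robos that passed the filter were low in the nerve. Robo3, which did not pass in any tissue, went the other way. It read 23.9 and 2.35 in the cerebellum, 46.9 and 36.9 in the cord and 106 and 132 in the nerve. Unc5b, a netrin receptor also found on vessels, read 1323 and 1480.4 in the cerebellum, 1007 and 1159 in the cord and 224 and 229.7 in the nerve, 4.52-fold below the cord and 5.83-fold below the cerebellum. Unc5c, whose loss disturbs cerebellar layering in mice, read 948 and 900.1 in the cerebellum, 379 and 388 in the cord and 313 and 199.7 in the nerve, and was 2.35-fold lower in the cord than in the cerebellum. For both, the 2 nerve arrays lay under every central array. Robo2, a Slit receptor, read 284 and 209.6 in the cerebellum, 852 and 756 in the cord and 92.8 and 38.2 in the nerve. It was 3.15-fold higher in the cord than in the cerebellum and at least 6.5-fold lower in the nerve than in the cord (log2 difference -3.41 ± 0.28). Robo1 read 214 and 169.8 in the cord and 68.9 and 39.4 in the nerve, under the filter, and was called lower there by at least 1.64-fold. Unc50, one of the name matches, was not called between any tissues.

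The arrays that stood apart changed the size of these differences more than the calls. With both nerve arrays numbered 1 left out, 14 genes were higher and 15 lower in the nerve than in the cord, and 19 were higher and 14 lower than in the cerebellum. These included every gene called with them. Of the genes low in the nerve, Sema4d went from -4.49 to -4.67, Robo2 from -3.41 to -3.92, Sema3e from -2.97 to -3.57, and Epha10 from -3.19 to -3.47, while Epha5 (-3.53 and -3.51) and Unc5b (-2.17 and -2.16) hardly moved. Among the high genes, Sema3b went from 2.08 to 2.28 and Ntn1 from 1.97 to 1.88. With 1 saline nerve array left, its spread was taken to equal that of the other groups. Shares of all probe sets called in the fits with arrays left out are not given here, so these counts cannot be set against a background. Without cord saline replicate 1, the array with muscle markers, the counts were 12 higher and 6 lower for cord against cerebellum and 13 and 13 for nerve against cord, and Sema3c in the cord against the cerebellum moved from 2.40 to 2.71.

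In the nerve, genes that are lower there than in the cerebellum tended to be brighter on the arrays numbered 1. Of the 13 called lower, replicate 1 exceeded replicate 2 for 9 in saline and 11 in acrylamide, 8 of them in both, with median log2 differences between replicates of 0.44 and 0.35. Of the 19 called higher, it did so for 10 and 4, 1 of them in both, with medians of 0.03 and -0.12. The same shares over all called probe sets were not computed, so this is not shown to be particular to guidance genes. Examples are Sema3e, at 167 and 64.5 on the saline and 168 and 84.3 on the acrylamide nerve arrays, and Epha4, at 254 and 147 and 201 and 134. The same arrays carried the cerebellar markers given above, whose part in these levels was not tested.

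**Figure D4:**
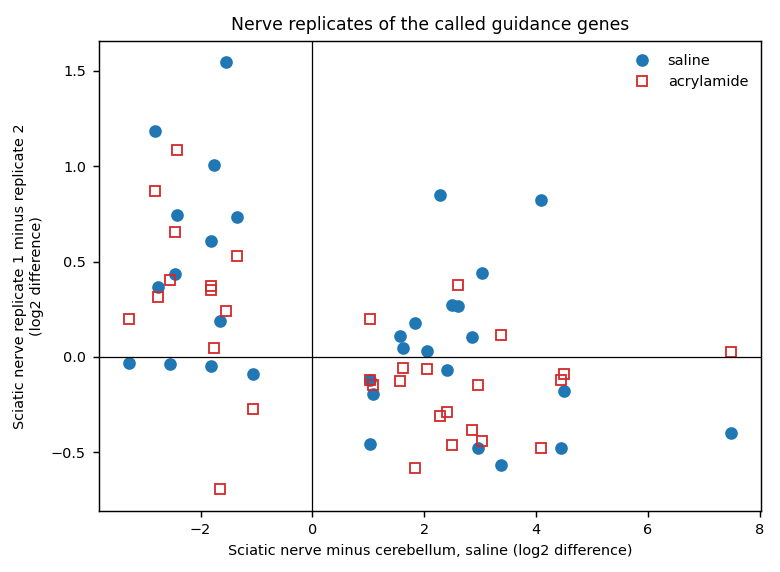
Log2 difference between nerve replicates 1 and 2 (vertical axis) against the log2 difference between nerve and cerebellum in saline rats (horizontal axis) for the 32 guidance genes called between those tissues, saline as filled circles and acrylamide as open squares. Of the 13 genes left of 0, 9 in saline and 11 in acrylamide lie above 0.

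Several genes had more than 1 probe set, which gives a second reading. For called genes whose other probe sets were tested, 9 of 9 other probe sets had the sign of the one used for cord against cerebellum (6 of them called), 12 of 12 for nerve against cord (9 called) and 16 of 16 for nerve against cerebellum (12 called). Sizes differed: for Robo2 in the nerve against the cord the other 2 read -0.70 and -2.43 beside -3.41, and for Sema5a they read 2.25 and 1.35 beside 2.24. These counts cover only differences called by the probe set used, and agreement for uncalled ones was not counted. Among those left out are Sema3f, Sema6c, Slit2 and Nrp1 in the nerve against the cord, where another probe set differed more. Probe sets of 1 gene share its RNA and are not replicates.

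The tissue comparison was repeated with the acrylamide arrays in place of the saline arrays. The differences then share no array with those in saline rats. The spread, the filter and the choice of probe set still came from the arrays of both treatments. Standard errors, p-values and calls are therefore not independent of the saline comparison. In the cord, 13 genes were called higher and 5 lower than in the cerebellum on the acrylamide arrays, with 13 and 4 in common. In the nerve, 16 were higher and 14 lower than in the cord (12 and 14 in common), and 16 higher and 12 lower than in the cerebellum (all in common). The exception in the cord was Plxnc1, whose log2 difference there was -0.999. Shares of all probe sets called between tissues on the acrylamide arrays are not given here.

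Acrylamide was compared with saline within each tissue. No guidance gene was called at an adjusted p under 0.05 in the cerebellum (0 of 36), the cord (0 of 45) or the nerve (0 of 40), where 0%, 0% and 0.00553% of all probe sets were called. At an unadjusted p under 0.05 there were 2 guidance genes in each tissue, beside 510, 544 and 922 of all 18820, 18967 and 18088 probe sets. The median log2 differences of the guidance genes were 0.02, 0.03 and -0.03. The acrylamide pair and the saline pair did not overlap for 14 of 36 genes in the cerebellum, 14 of 45 in the cord and 9 of 40 in the nerve (38.9%, 31.1% and 22.5%), beside 33.7%, 33.6% and 26.3% of all probe sets. These shares are near the background.

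**Figure D5:**
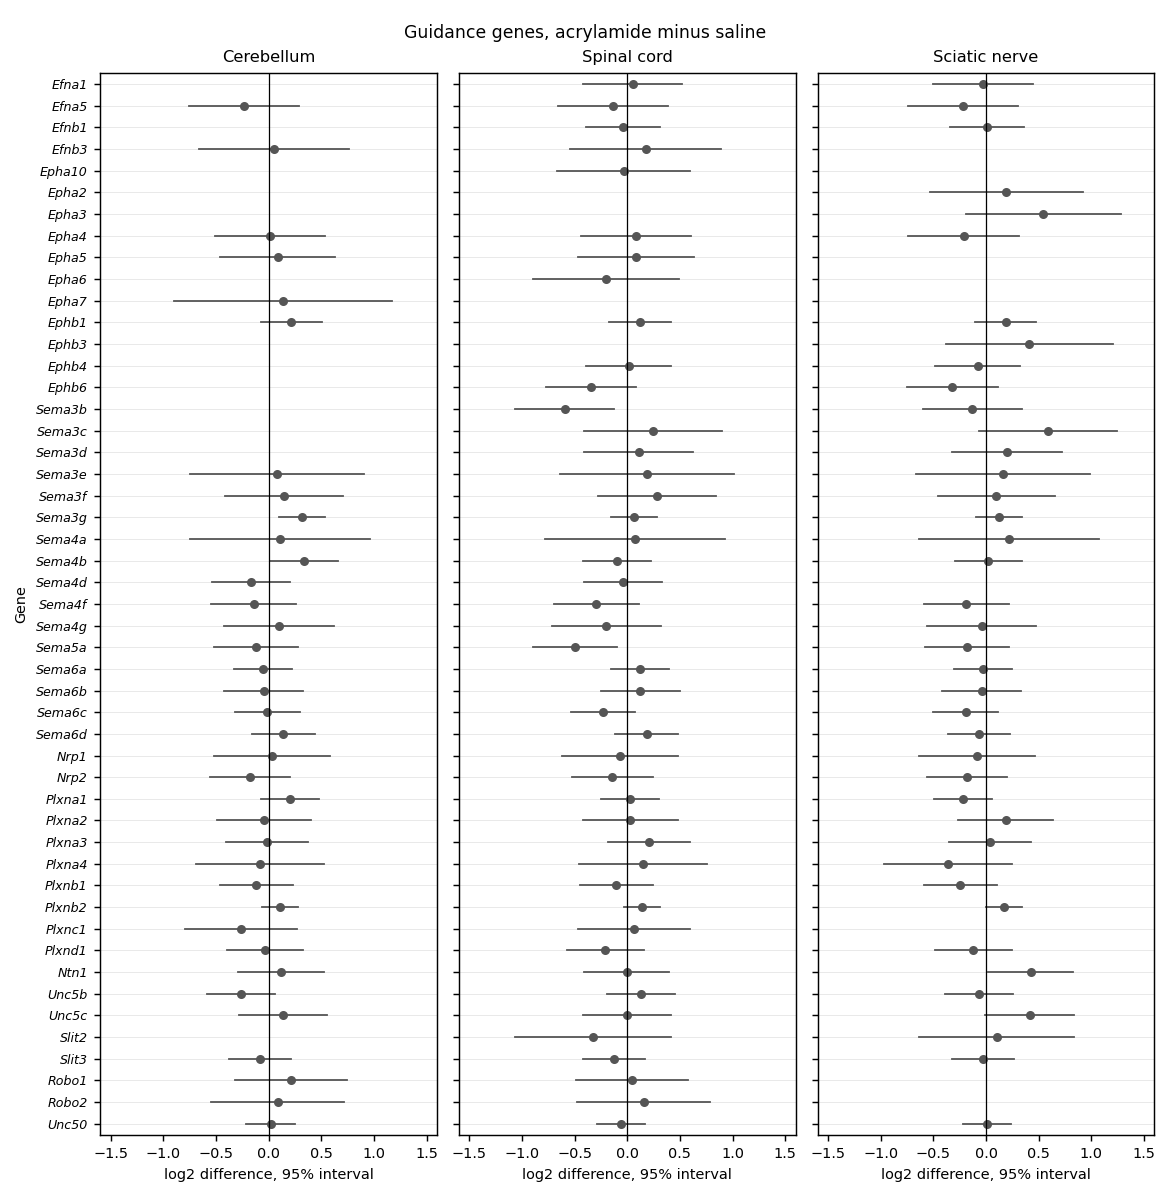
Log2 difference of acrylamide minus saline with its 95% interval for each guidance gene that passed the filter in the tissue (2 arrays per group). Intervals use the spread shared by all 6 groups. The points lie between -0.60 (Sema3b, cord) and 0.59 (Sema3c, nerve), and no gene was called.

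The 2 genes with an unadjusted p under 0.05 in the cerebellum were Sema3g and Sema4b. Sema3g read 1632 and 1618 in saline and 2060.1 and 1999 in acrylamide rats, and both acrylamide arrays were above both saline arrays. Its log2 difference was 0.32 ± 0.10 (95% interval 0.10 to 0.54, adjusted p = 1 by limma). Sema4b, a membrane semaphorin, read 214 and 198 and 239.7 and 291, again without overlap (0.34 ± 0.14, adjusted p = 1). Next came Unc5b at -0.26 ± 0.14, Ephb1 at 0.21 ± 0.13, Plxna1 at 0.20 ± 0.12 and Plxnb2 at 0.11 ± 0.08, each with an adjusted p of 1.

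In the cord, the 2 genes with an unadjusted p under 0.05 were ligands that were higher in the nerve than in the cord. Sema3b read 2169 and 3066 in saline and 2002 and 1445 in acrylamide rats, and Sema5a 1414 and 1754 and 1248 and 988. For each, both acrylamide arrays were below both saline arrays. The log2 differences were -0.60 ± 0.21 for Sema3b (95% interval -1.06 to -0.13) and -0.50 ± 0.18 for Sema5a (95% interval -0.90 to -0.10), each with an adjusted p of 1 by limma. The 5 Schwann cell markers used (Prx, Pmp2, Scn7a, Egr2 and Drp2) summed to 19350.4 and 23494 in saline and 15849 and 11622 in acrylamide cords, and the 5 fibroblast and perineurium markers to 23585 and 21530.2 and 18108 and 14959. Each of these markers was lower on both acrylamide cords than on both saline cords, and their part in the Sema3b and Sema5a differences was not tested. Without cord saline replicate 1 the differences were -0.84 and -0.65, not called. The other named genes were Plxnb2 (0.14 ± 0.08), Ephb6 (-0.35 ± 0.19), Sema6c (-0.23 ± 0.14) and Sema4f (-0.30 ± 0.18), each with an adjusted p of 1.

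In the nerve, the tissue whose axons acrylamide is known to damage, Ntn1 and Plxnb2 had an unadjusted p under 0.05. Ntn1 read 1526 and 1348 in saline and 1575 and 2361 in acrylamide rats, and 1 acrylamide array stood well above the other 3. Its log2 difference was 0.42 ± 0.18 (95% interval 0.016 to 0.83, adjusted p = 0.97 by limma). Skeletal muscle markers on the same arrays summed to 3884 and 500.5 and to 1294 and 15815, highest on the array where Ntn1 was highest, and their part was not tested. Without that array, acrylamide replicate 2, the difference fell to 0.13. Plxnb2 read 1924 and 1743 and 2073 and 2055 (0.17 ± 0.08, adjusted p = 0.97). The next genes were Sema3c at 0.59 ± 0.29, Epha3 at 0.55 ± 0.33, Unc5c at 0.42 ± 0.19 and Plxna1 at -0.22 ± 0.12, with adjusted p from 0.97 to 0.999. The first 3 moved with single arrays: over the settings tried they ranged from 0.18 to 1.24, 0.15 to 1.16 and 0.11 to 0.72, each lowest without saline nerve replicate 2 and none called. Without both nerve arrays numbered 1 they were 1.24 (adjusted p = 0.0525 by limma), 1.16 (0.163) and 0.55 (0.074). Slit2, Slit3, Sema3b, Sema5a and Plxnd1, which were high in the nerve, differed there by 0.10, -0.03, -0.13, -0.18 and -0.12 between treatments.

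Leaving out both nerve arrays numbered 1 changed the calls in the nerve. The comparison then sets 1 acrylamide array against 1 saline array with a spread borrowed from the other groups, and 2.13% of all 17910 probe sets were called. The acrylamide array that remained was the one with muscle markers. Ntn1 was then called at 0.80 ± 0.17 (adjusted p = 0.0455, against 0.97 with all arrays and 0.0455 to 1 over the settings tried), and so was Sema4a at 0.87 ± 0.15 (adjusted p = 0.0189, against 0.999 with all arrays and 0.0189 to 1 over the settings). Sema4a read 382 and 120.4 in saline and 278 and 233 in acrylamide nerves, so the saline array numbered 1 was the brightest of the 4. It was also one of the arrays with cerebellar markers, whose part in its level was not tested.

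Averaged over the tissues, 0 of 29 guidance genes were called, where 0.0127% of all 15773 probe sets were. At an unadjusted p under 0.05 there were 4, beside 866 of all probe sets. Plxnb2 was higher on both acrylamide arrays than on both saline arrays in each of the 3 tissues, for an average of 0.14 ± 0.04 (adjusted p = 0.732 by limma). Its cerebellum signals were 3076 and 3134 and then 3266 and 3419, and its cord signals 1133 and 1207 and then 1310.3 and 1268. Sema3g averaged 0.17 ± 0.06, Ephb1 0.17 ± 0.07 and Sema5a -0.27 ± 0.10, with adjusted p of 0.76, 0.889 and 0.814. Sema4f and Sema6c averaged -0.21 ± 0.10 and -0.15 ± 0.08. Without the nerve arrays numbered 1, 1.27% of 15569 probe sets were called on average, Sema4a among them (0.35 ± 0.07, adjusted p = 0.046, against 1 with all arrays and 0.046 to 1 over the settings).

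Whether the treatment difference itself varied between tissues was tested with an F test over the 3 differences. None of 29 guidance genes was called, where 0% of 15773 probe sets were, and none had an unadjusted p under 0.05, beside 368 of all probe sets. The smallest p belonged to Plxna1, Sema4b, Sema3g and Unc5b, each with an adjusted p of 1. For Plxna1, a plexin that pairs with neuropilins, the 3 differences were 0.20 in the cerebellum, 0.026 in the cord and -0.22 in the nerve.

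The molecules that work downstream of these receptors were read from a list of 82 genes: co-receptors and adhesion partners, cytosolic signalling proteins, and outgrowth inhibitors of myelin and growth cones. On the array 77 had a probe set, and 73 were tested. In the cord against the cerebellum 8 were called higher and 15 lower of 73, in the nerve against the cord 8 and 21 of 71, and in the nerve against the cerebellum 8 and 27 of 72. These shares were 31.5%, 40.8% and 48.6%, beside 21.6%, 26.1% and 38.4% of all probe sets. The list, too, holds only the brightest probe set of each gene. Tiam1, an activator of the GTPase Rac1, was -2.33 ± 0.14 in the cord against the cerebellum, and Chn2, a Rac inhibitor of the cerebellum, was -2.01 ± 0.13. Mag, a myelin inhibitor of outgrowth that is also among the oligodendrocyte markers used here, was 2.26 ± 0.15. Pak3, a kinase that responds to Rac1, read 1390.4 and 1596 in the cord and was under the filter in the nerve (76.9 and 59.5). In the nerve against the cord, the adhesion partner Ncam1 was -1.96 ± 0.11, while the adhesion partner Chl1 was 1.75 ± 0.12. Mical1, an oxidase that takes actin apart downstream of plexins, was under the filter in the cerebellum (15.8 and 41) and read 1029.5 and 1378 in the nerve. Lingo1, part of the Nogo receptor complex, was -1.66 ± 0.08 in the nerve against the cerebellum. Between acrylamide and saline, none of the list was called in any tissue. At an unadjusted p under 0.05 there were 2 of 71 in the cerebellum (Dock1 at 0.20 ± 0.07 and Rhoa at 0.34 ± 0.13), 1 of 71 in the cord (Ssh1 at -0.59 ± 0.14) and 4 of 64 in the nerve (Arhgef11, Flrt2, Flrt3 and Rock2), which is 2.82%, 1.41% and 6.25% beside 2.71%, 2.87% and 5.1% of all probe sets.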

How the data were processed

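Total RNA was hybridised as biotin-labelled cRNA to 1-colour Affymetrix rat arrays, per the labels, 1 array per pool. Each probe set has 1 deposited value, a linear intensity in arbitrary units computed by the authors using GCOS 1.1, as the submitters' processing notes state. Which algorithm and scaling target they used is not given in the sources used here. Array medians lay between 161.75 and 199.036, and means after trimming 2% at each end between 500.124 and 500.151, which shows a scaling of whole arrays. The number of arrays limits the precision.

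Of 31099 probe sets, 57 controls were left out. Values were taken as log2(signal + 16) and fitted with limma 3.58.1 in R 4.3.3 (lmFit, eBayes with intensity trend), with 1 mean for each of 6 groups over 12 arrays (6 residual and 3.14 prior degrees of freedom); the 6 groups share 1 spread per probe set, over 21347 probe sets in the fit. P-values were adjusted by Benjamini-Hochberg over all probe sets tested in a comparison. Array values under 110 units in the dimmer tissue were set to 110 for folds, which are then lower bounds. The ranges given with the start-site sequences are the exception and use the values as they are. The procedure was tested on simulated data.

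Groups and replicate numbers come from the labels. Genes named with values are, per tissue comparison and direction, up to 6 called genes with the largest difference; per treatment comparison, the 6 with the smallest p (4 for the difference between tissues); the brightest in each tissue; and in each class the brightest and the one with the widest range. Further called genes are named as well, though not each with values or for each comparison in which it was called. The members, the gene lists and this rule were chosen with earlier results of these data known. Alternatives tried were other pseudocounts, filters, scalings, the replicate number as a block, the acrylamide arrays in the tissue comparisons, and arrays left out.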

Additional observations from a re-analysis of the deposited data

How the results depend on the processing

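Counts of called guidance genes were recomputed under 11 or 12 alternatives and with each of 12 arrays left out. The acrylamide counts stayed at 0 when any 1 array was left out and under the alternatives, except without both nerve arrays numbered 1, when 2 genes were called in the nerve and 1 on average. With 1 array left out, the counts ranged from 12 to 13 higher and 4 to 6 lower in the cord than in the cerebellum, 12 to 14 higher and 13 to 15 lower in the nerve than in the cord, and 16 to 20 higher and 11 to 14 lower in the nerve than in the cerebellum. Over the other alternatives these were 10 to 15, 4 to 6, 10 to 18, 9 to 16, 16 to 20 and 10 to 17. With the filter at the 60th percentile, 9 of 36 tested genes were lower in the nerve than in the cord, all 9 among the 14. Fewer genes are tested there. For the tissue counts, shares of all probe sets called under these settings are not given here. Over 63 comparisons of named genes and 1455 settings, 1448 kept direction and call, 6 lost the call (5 of them Epha7 in the cord against the cerebellum and 1 Plxnc1), 1 gained it (Ntn1 in the nerve) and 0 reversed. The treatment comparisons among them were uncalled from the start. Some settings left out an array of a tissue outside the comparison, which cannot move its difference. For these, an unchanged outcome says little. Replicate numbers were not shown to pair the pools: deviations of same-numbered saline and acrylamide arrays correlated at 0.0583 in the cerebellum, -0.0681 in the cord and 0.427 in the nerve, and from -0.00304 to 0.227 between tissues. With the replicate number as a block, the acrylamide counts stayed at 0 in each tissue and on average, and the tissue counts at 13 and 5, 12 and 14, and 19 and 13. With 2 pools per group, a difference of the size of the median standard error (0.18, 0.19 and 0.18 log2 for guidance genes in cerebellum, cord and nerve) cannot be told from 0.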
